A study of Caenorhabditis elegans with 2 samples.

Results

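Muscle calcium handling genes were examined in a ChIP-seq series that mapped UNC-98::GFP on the *Caenorhabditis elegans* genome. The 5 genes, *sca-1*, *unc-68*, *csq-1*, *egl-19* and *pat-10*, were chosen by function, out of 19973 protein-coding genes on the 6 nuclear chromosomes, and the rule used no measured value, although the choice was made with earlier results of these data known. All samples came from strain OP85. It carries the *unc-119(ed3)* allele and the transgene wgIs85, which holds *unc-98* joined to the TY1, EGFP and 3xFLAG tags and an *unc-119(+)* rescue gene. The animals were L1 larvae, 6 hours old and starved after bleaching, and their chromatin was precipitated with an anti-GFP antibody. There was 1 group of 2 biological replicates and no second condition, so every value below is a description and no test was made.

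Muscle contraction follows the calcium level in the cytoplasm. A voltage-gated channel in the plasma membrane opens on excitation, ryanodine receptors release calcium from the sarcoplasmic reticulum, troponin on the thin filament binds it and permits contraction, and an ATP-driven pump returns it to the store, where calsequestrin buffers it. In *C. elegans* body wall muscle these roles belong to EGL-19, the pore-forming subunit of the L-type channel, UNC-68, the ryanodine receptor, PAT-10, troponin C, SCA-1, the SERCA pump, and CSQ-1, calsequestrin. UNC-98 carries zinc fingers and is found where muscle attaches to the cell membrane and in nuclei. Chromatin was taken from whole larvae, so signal from muscle nuclei and from other nuclei cannot be told apart.

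The deposited files give regions, each with a summit, a signal and, in the ranked lists, the −log10 of an irreproducible discovery rate (IDR), capped at 5. Signal is the score of the authors' software on a scale that is not stated. A ranked list holds all candidate regions (103403 in replicate 1 and 106737 in replicate 2), most of them weak, with a median signal of 12.7 in each. A thresholded list keeps those at an IDR of 0.01, which is 2 on the −log10 scale. The conservative series list, with 728 regions, was read first, beside a second series list of 790. Depth is unknown, since the files hold no read counts. Larvae without the tag were not analysed here, and regions that they would also give cannot be told apart from those of UNC-98. Promoter windows covered the 1000 bp before and the 500 bp after each 5′ end of a coding transcript.

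Of the 5 genes, only the calcium pump gene *sca-1* had a conservative summit in a promoter window, as did 3.16% of all protein-coding genes. It was also the only member with a conservative summit in an intron, against 0.752% of genes that have introns. In introns the second series list had a summit at *sca-1* alone (0.788% of genes), the list of replicate 1 at 0 of the 5 (0.56%), and that of replicate 2 at *sca-1* alone (0.384%). The gene had 2 conservative regions, and the intronic region counts in both places. The first (III, 10816976 to 10817291 on the minus-strand gene, ce11) had its summit 284 bp upstream of the gene's outermost 5′ end. The other (III, 10816051 to 10816366) lay inside the gene, 641 bp downstream of that end. Its summit was in the intron before the exon in which a shorter annotated transcript begins, 301 bp upstream of that transcript's 5′ end. Each region was 316 bp wide, the median and the greatest width in the list, with the summit at its centre. That width therefore does not measure how finely a position is resolved. The upstream region's candidate had its summit 230 bp upstream of the outermost 5′ end in replicate 1 and 279 bp in replicate 2. For the intron region the summits were 594 bp and 638 bp downstream of that end.

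The sequences around both summits are shown because they are the places where a called region meets a member gene. A *csq-1* window is set beside them as a member with no called region. It is centred on the strongest promoter candidate of that gene in the ranked list of the series (chrX:14684464-14684663, plus strand). The *sca-1* windows are chrIII:10817034-10817233 and chrIII:10816109-10816308, on the minus strand. Each is 200 bases from the RefSeq copy of the same build, 5′ to 3′ in the direction of the gene, with capitals for matches to GAGAGA or GGGCGG on either strand.
sca-1 upstream: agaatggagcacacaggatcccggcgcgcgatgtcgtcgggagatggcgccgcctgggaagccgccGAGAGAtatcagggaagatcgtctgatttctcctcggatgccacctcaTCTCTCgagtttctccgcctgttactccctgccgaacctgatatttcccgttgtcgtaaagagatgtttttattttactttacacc
sca-1 intron: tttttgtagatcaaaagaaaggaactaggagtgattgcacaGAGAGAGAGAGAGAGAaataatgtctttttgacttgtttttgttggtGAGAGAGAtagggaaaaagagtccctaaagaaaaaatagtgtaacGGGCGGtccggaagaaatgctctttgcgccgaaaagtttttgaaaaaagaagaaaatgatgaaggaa
csq-1 upstream: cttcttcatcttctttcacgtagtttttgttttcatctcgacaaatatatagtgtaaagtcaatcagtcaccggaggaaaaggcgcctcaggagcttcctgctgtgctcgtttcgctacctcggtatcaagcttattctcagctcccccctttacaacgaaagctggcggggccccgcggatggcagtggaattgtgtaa

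Both *sca-1* windows held a GA repeat. GAGAGA, read on both strands, matched 8 times with overlaps in the intron window, in a run of GA repeats and a shorter one, and 2 times in the upstream window. It matched nowhere in the *csq-1* window, and 2 times in a window of the same length at the *pat-10* region described below, which was not in the conservative list. The same letters were present in 32.1% of the 728 conservative windows of this length and in 16.3% of 19973 windows of 200 bp upstream of coding genes, so matches were common in both sets. The GC box GGGCGG matched 1 time in the intron window, against 10.4% of conservative windows and 5.95% of upstream windows that hold it. It also matched 1 time in a window of this length at the strongest promoter candidate of *egl-19*, which had no called region. The *sca-1* upstream window was GC-rich, at 53.5%, and the intron window was not, at 37.0%. The medians were 43% over conservative windows and 33% over upstream windows. Outside the conservative list, windows at the strongest promoter candidates had 41.0% (*unc-68*), 48.5% (*csq-1*), 47.5% (*egl-19*) and 48.5% (*pat-10*).

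No other sequence searched was found in either *sca-1* window. These were the E-box CANNTG (52.2% of conservative and 51.1% of upstream windows), its form CAGCTG (5.63% and 3.42%), which the MyoD family of muscle factors binds and which the first pattern includes, and a MEF2-type sequence of CTA and TAG around 4 free bases (1.10% and 1.89%). They also included the GATA site TGATAA (10% and 22.7%), TATAAA (14.1% and 30.4%), the heat shock pair GAANNTTC (14.4% and 12.6%), the bZIP sites TGACGTCA (0.549% and 0.936%) and TGANTCA (5.22% and 7.05%), and the acceptor-like TTTTCAG (13.5% and 21.9%). A missing match says only that these letters are not in these 200 bases. In the windows of the other members, only CANNTG of these patterns matched, 1 time each at *egl-19* and *pat-10*.

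Both *sca-1* regions were of low signal for the conservative list by series signal and in replicate 1, and near its middle in replicate 2. The upstream region had a series signal of 87.4, rank 487 of 728, and the intron region 72.7, rank 618, where the median of the list was 105. In the ranked lists of the replicates, the upstream region had a signal of 38.6 in replicate 1 and 46.9 in replicate 2, a mean of 42.7 ± 5.87 (SD, n = 2). The intron region had 32.5 in replicate 1 and 47.3 in replicate 2, a mean of 39.9 ± 10.4 (SD, n = 2). Among the 722 regions with a value in each replicate, the upstream region ranked 598 in replicate 1 and 380 in replicate 2. The intron region ranked 682 and 375. In both *sca-1* regions replicate 2 had the higher signal. The reverse held in most of the list, where the median signal over 722 regions with a value in each replicate was 59.4 in replicate 1 and 48.6 in replicate 2. The log2 ratio of replicate 2 to replicate 1 was 0.54 for the intron region, above 94.9% of those regions, and 0.28 for the upstream region, above 84.1%. The median log2 ratio of the list was -0.23.

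**Figure D1:**
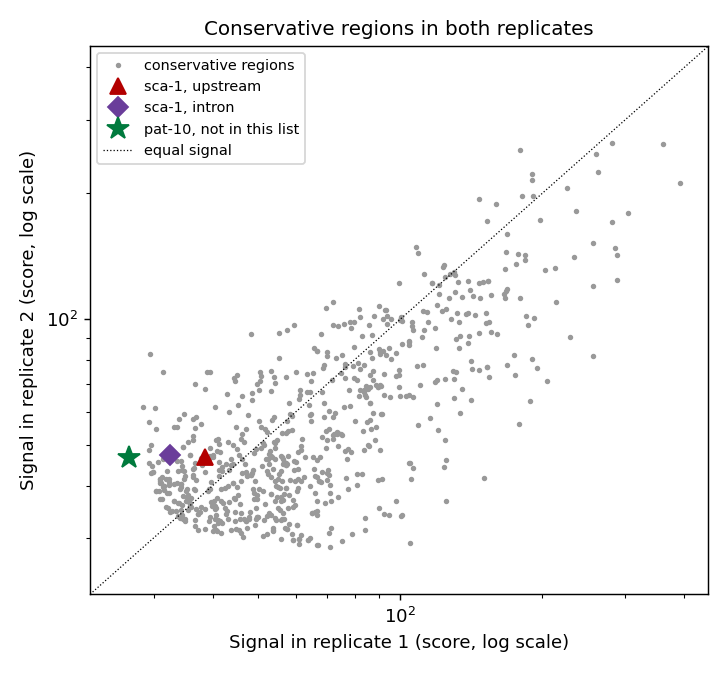
Signal in replicate 1 (x axis) and replicate 2 (y axis) of the 722 conservative regions with a value in each, deposited scores on log scales. Each region is 1 grey point, and a dotted line marks equal signal. Both *sca-1* regions lie above the dotted line at the low end of replicate 1. The *pat-10* candidate (26.6 and 46.5) lies left of all conservative regions shown.

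The replicates differed in which *sca-1* region came closer to the threshold. In replicate 1 the upstream region had a −log10 IDR of 1.91 and the intron region 0.94, both below 2. In replicate 2 the upstream region had 0.70 and the intron region 2.13, and of the 2 only the intron region entered the thresholded list. In the ranked list of the series that contains all 728 conservative regions at 2 or more, the upstream region had 2.48 and the intron region 2.27. No region of the gene was in the thresholded list of replicate 1, where 2.89% of genes had a promoter summit. In that of replicate 2, 1.79% of genes had one, *sca-1* among them.

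The neighbourhood of *sca-1* held 3 further conservative regions. The strongest of the locus (III, 10811231 to 10811546, series signal 103.4) lay 517 bp past the 3′ end of the gene, with the nearest coding 5′ end, of the kinesin gene *klp-7*, 3048 bp away. It had 38.7 in replicate 1 and 46.6 in replicate 2. An overlapping pair lay in the long non-coding gene *linc-129* (III, 10819750 to 10820065, signal 78.2, and III, 10819949 to 10820264, signal 19.5). Its nearer summit was 3058 bp upstream of *sca-1*, the nearest coding gene. The pair met the same candidate in each replicate, 35.9 in replicate 1 and 47.3 in replicate 2, where it was in the thresholded list. With these, *sca-1* had 5 conservative summits within 5000 bp of the gene, a distance chosen after its values were seen. The overlapping pair counts as 2 of these, and the second series list held 4 regions in the same span, without the weaker of the pair. Of 19973 genes, 1901 (9.52%) had at least 1 summit in such a span, 37 had 3 or more and 6 had 4 or more. The other genes with 4 were C30E1.4, *brc-1*, *duo-3*, *kel-3* and *nhr-88*. By promoter windows alone, 35 of 632 genes with a summit (5.54%) had 2 or more, as *sca-1* did.

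**Figure D2:**
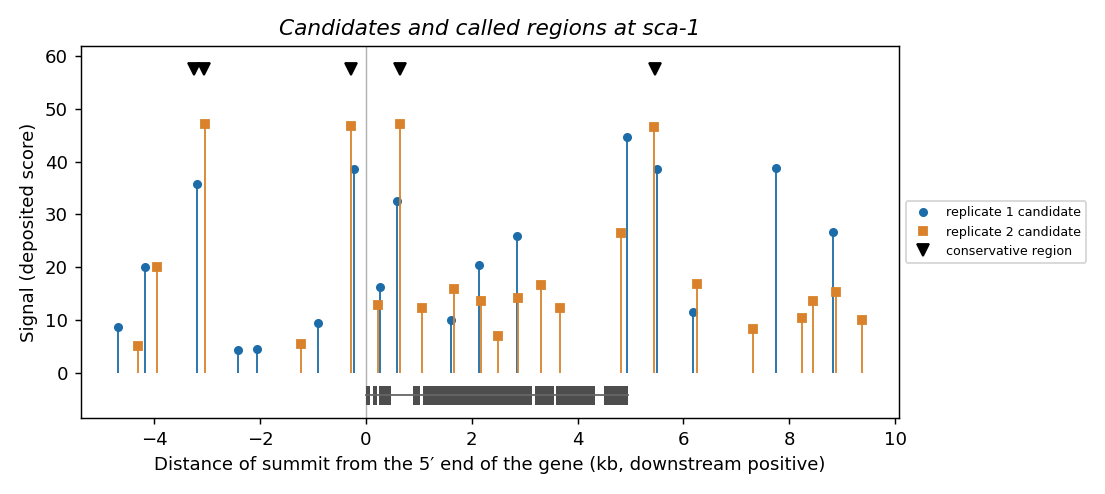
Signal (deposited score, y axis) of every candidate region of replicate 1 (circles) and replicate 2 (squares) by distance of its summit from the 5′ end of *sca-1* in kb (x axis), with exons as grey blocks. Triangles mark the 5 conservative regions, which stand over candidates of 32.5 to 47.3. Replicate 1 also has a candidate of 44.8 at the 3′ end of the gene and 1 of 38.8 farther downstream, with no triangle.

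The ryanodine receptor gene *unc-68* (V, 6901681 to 6929038, minus strand), the longest of the 5 at 27358 bp, had no region in any thresholded list. Its 16 coding transcripts start at 3 distinct 5′ ends, 1 of them 4077 bp inside the gene. The strongest candidate in its promoter windows had a signal of 13.3 in replicate 1 and 21.0 in replicate 2. Replicate 1 was below the median of 16.9 over all genes with such a candidate and replicate 2 was above the median of 17.1. These 2 candidates did not coincide. The first lay at -758 bp and the other at -224 bp from the internal 5′ end, negative being upstream. At the first place replicate 2 had 14.3. Over 11161 bp of introns each replicate had 8 candidates, or 0.717 per kb, where all introns had 1.03 per kb in replicate 1 and 1.06 in replicate 2. The highest was 25.8 in replicate 1, 21165 bp inside the gene, above 87.0% of genes with an intronic candidate, and it met a candidate of only 11.2 in replicate 2. That percentile was not adjusted for intron length, whose median over genes with introns was 765 bp.

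By the highest promoter candidate of each gene, the calsequestrin gene *csq-1* (X, 14684877 to 14688322, plus strand) was the lowest of the 5 in each replicate. Its single 5′ end had promoter candidates of 9.96 and 7.21 in replicate 1 and 15.8 in replicate 2. The highest of each replicate stood above only 12.7% of genes in replicate 1 and 42.5% in replicate 2. Replicate 2 had its summit 316 bp upstream of the 5′ end and overlapped both of the replicate 1 regions. In the 2037 bp of introns the highest candidate was 9.62 in replicate 1 and 13.96 in replicate 2. The region at 313 bp upstream in the ranked list of the series, whose sequence is printed above, had a signal of 32.6 and a −log10 IDR of 0.11. In that list the highest promoter candidate of *unc-68* was lower, at 27.9.

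The L-type channel gene *egl-19* (IV, 7405582 to 7418740, plus strand) had no called region, and its replicates differed in where candidates lay. It has a 5′ end at its start and another 10629 bp inside. In replicate 1 the only promoter candidate was at the inner end, 179 bp downstream of it in an exon, with a signal of 22.2, above 75.4% of genes. In replicate 2 the highest was at the outer end, 6 bp downstream of it, with 19.3, above 61.8%. Just beyond the window, 533 bp downstream of the outer end and in an intron, replicate 2 had a candidate of 36.9. That is rank 928 of its ranked list and above 98.3% of genes with an intronic candidate, but its −log10 IDR was 0.16 and replicate 1 had no region there. The introns of *egl-19* span 6694 bp, where the median over genes with introns was 765 bp. Longer introns give a high candidate more room, and the percentile was not adjusted for it. The highest intronic candidate of replicate 1 was 15.1, 8060 bp downstream of the outer end, which replicate 2 met with 14.9.

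**Figure D3:**
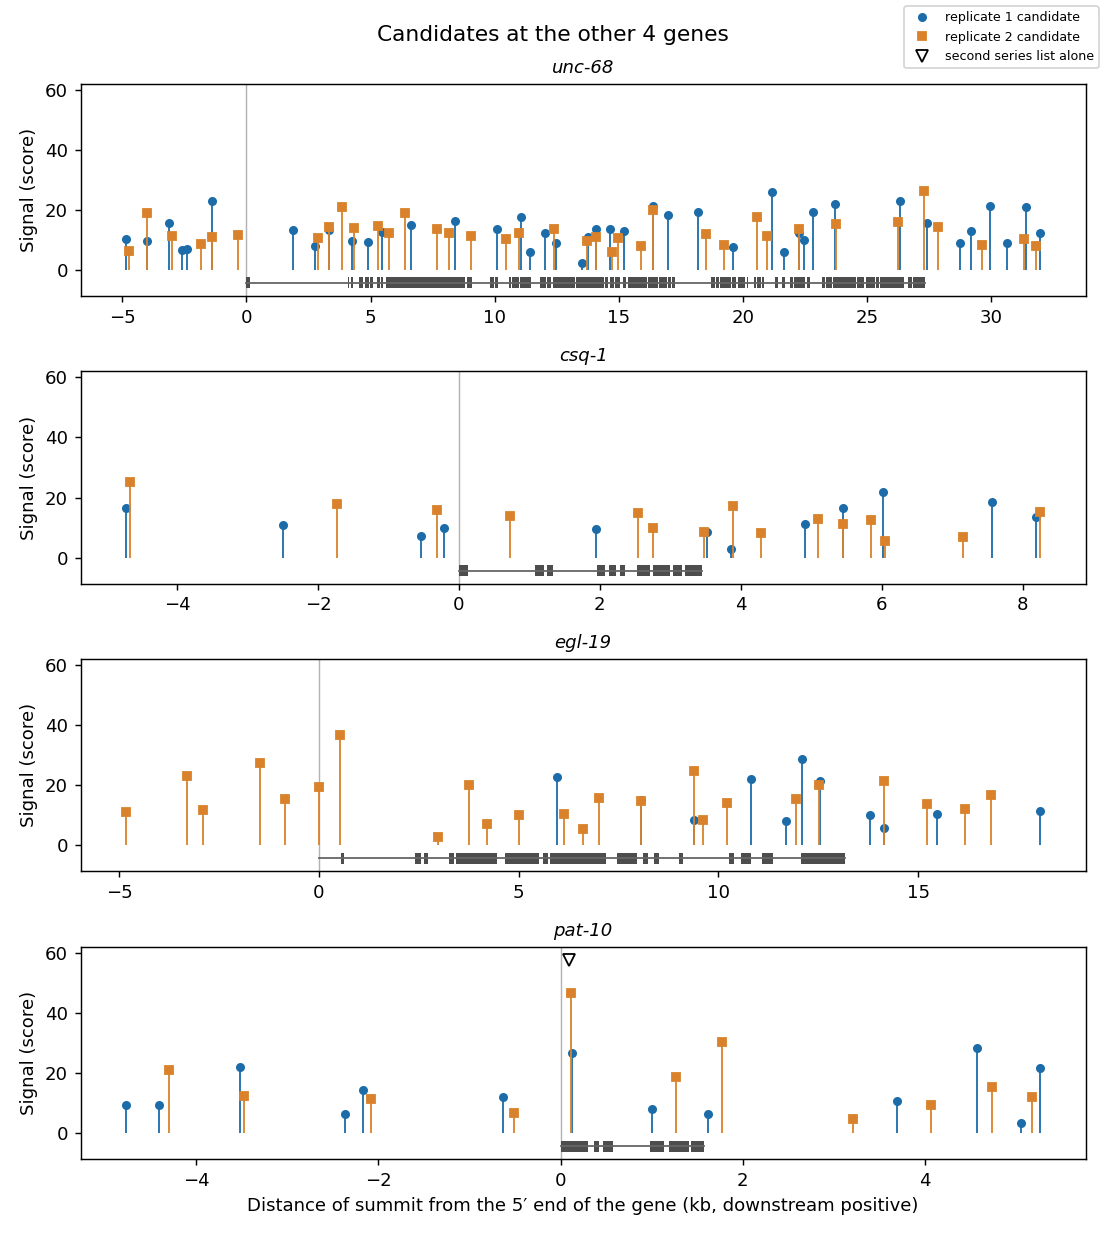
Signal (deposited score, y axis) of every candidate of replicate 1 (circles) and replicate 2 (squares) by distance of its summit from the 5′ end of the gene in kb (x axis), with exons as grey blocks, for *unc-68*, *csq-1*, *egl-19* and *pat-10*. The open triangle marks the *pat-10* region of the second series list. No candidate at *unc-68* or *csq-1* is as high as the highest of *egl-19* (36.9) and *pat-10* (46.5), and the start of *egl-19* has candidates of replicate 2 alone.

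The troponin C gene *pat-10* (I, 5018783 to 5020358, minus strand) came nearest to *sca-1*. Its region (I, 5020112 to 5020427, series signal 72), with the summit in an exon 88 bp downstream of the outer 5′ end, was in the second series list, where 3.38% of genes had a promoter summit, and not in the conservative list. Its −log10 IDR was 1.76 in the ranked list that holds the conservative regions and 2.06 in the one that holds the regions of the second list, on either side of the threshold of 2. The signal was 26.6 in replicate 1 and 46.5 in replicate 2, a mean of 36.6 ± 14.1 (SD, n = 2). The value of replicate 2 was within 1 unit of the *sca-1* regions in that replicate. That of replicate 1 was below 28.5, the lowest replicate 1 value among conservative regions that met a candidate there, which not all did. Neither replicate had a candidate in its 597 bp of introns.

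By the highest promoter candidate, the order of the mean signals was *sca-1* (42.9 ± 6.13, SD, n = 2), *pat-10* (36.6 ± 14.1), *egl-19* (20.7 ± 2.06), *unc-68* (17.1 ± 5.41) and *csq-1* (12.9 ± 4.16). Each mean joins the highest candidate of each replicate, wherever it lay in the windows. For *sca-1*, *egl-19* and *unc-68* the replicates had it at different places, so these SDs do not measure agreement at a single site. The *sca-1* and *pat-10* values overlapped between replicates, as did those of *egl-19* and *unc-68*, and of *unc-68* and *csq-1*. Both replicates of *sca-1* and of *pat-10* were above both of the other 3 genes. In all 5 genes but *egl-19* replicate 2 was the higher. The windows of *unc-68* (3091 bp), *egl-19* (3002 bp) and *sca-1* (2443 bp) are longer than the median of 1501 bp because of inner 5′ ends, which gives a high candidate more room, while that of *pat-10* (1773 bp) is closer to it.

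**Figure D4:**
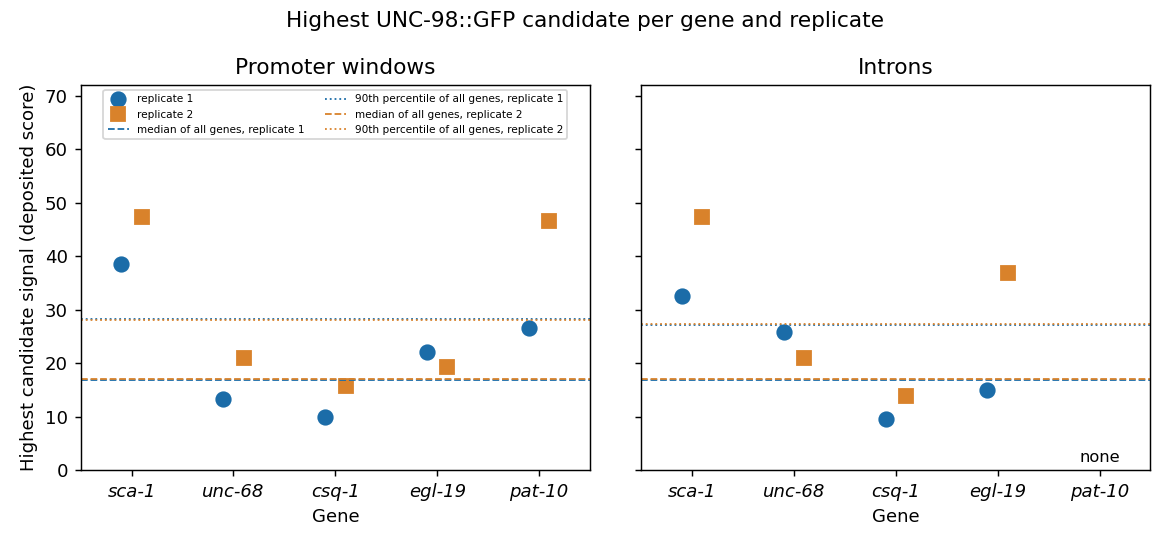
Highest candidate signal (deposited score, y axis) in the promoter windows (left) and introns (right) of each gene (x axis), with a circle for replicate 1 and a square for replicate 2, and lines at the median and 90th percentile of all genes with a candidate. Both points of *sca-1* are above the 90th percentile in both panels, where *pat-10* passes it in replicate 2 only and has no intronic candidate.

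Recurrence between replicates was counted over all candidates in the promoter windows and introns of the 5 genes. Of 22 in replicate 1, 15 (68.2%) overlapped a replicate 2 candidate, where 65.4% did over all protein-coding genes. Of 27 in replicate 2, 14 (51.9%) overlapped a replicate 1 candidate, against 63.5% over all genes. Both candidates of *pat-10* recurred in either direction, and at *unc-68* 5 of 9 did in replicate 1 and 4 of 9 in replicate 2.

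Beyond the 5, 69 further genes of calcium handling and muscle excitation were read in 7 lists. Of these, 2 had a conservative promoter summit, against 3.16% of all genes, and 2 others had an intronic one, against 0.752% of genes that have introns. The median highest promoter signal of the 69 was 18.6 in replicate 1 and 20.4 in replicate 2, against 16.9 and 17.1 over all genes. The 5 members had medians of 22.2 in replicate 1 and 21.0 in replicate 2. Promoter windows of the 69 ranged from 1501 bp to 13318 bp (*unc-43*), where the median over all genes was 1501 bp. A longer window gives a high candidate more room, and none of these medians was adjusted for it. The count of genes with an intronic summit was not adjusted for intron length either.

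Among channel genes, *unc-36*, which encodes an auxiliary calcium channel subunit, had a region (III, 8201759 to 8202074, series signal 64.3) whose summit was 700 bp upstream of a 5′ end. It met a signal of 38.8 in replicate 1 and no candidate in replicate 2. In the list of store genes, *stim-1*, for a sensor of store calcium, had an intronic region (III, 415274 to 415589, 127) with 58.1 in replicate 1 and 63.2 in replicate 2, both higher than either *sca-1* region. Of the troponin and tropomyosin genes, *mup-2*, a troponin T gene, had a promoter region (X, 6410437 to 6410752, 80.8) with 35.0 in replicate 1 and 42.1 in replicate 2. Like the *pat-10* region, it had more signal in replicate 2, and it was in the list of replicate 1 but not of replicate 2.

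Among calcium-dependent signalling genes, *cmk-1*, a calmodulin-dependent kinase gene, had the strongest region of the 7 lists (IV, 1831235 to 1831550, 172), in an intron 6912 bp downstream of its 5′ end, with 79.9 in replicate 1 and 86.0 in replicate 2. The *stim-1* and *cmk-1* regions were in the thresholded lists of both replicates. In the remaining lists 0 genes had a conservative summit. By the mean of the percentiles of both replicates, the first 2 genes of each of these lists are given, although other genes of a list can be higher in a single replicate. They were *mca-3*, a plasma membrane calcium pump gene (26.0 in replicate 1 and 29.6 in replicate 2), and *ncx-8*, a sodium-calcium exchanger family gene (26.7 and 26.3), for calcium extrusion. They were also *micu-1* (26.0 and 25.4) and *mcu-1* (15.4 and 11.0), genes of the mitochondrial uniporter, and the potassium channel gene *exp-2* (27.4 and 25.7) and the GABA receptor gene *unc-49* (21.5 and 25.8) for muscle excitation.

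The promoter regions most like the *sca-1* ones, by distance between log2 signals over the 2 replicates among 470 regions, are given next. Nearest to the upstream region were that of C27F2.9 and *vps-22*, an ESCRT gene (III, 4962978 to 4963293; 39.4 in replicate 1 and 47.1 in replicate 2, distance 0.03), and that of the actin gene *act-4* (X, 4960435 to 4960750; 38.01 and 45.8, distance 0.04). Nearest to the intron region were those of *rol-1* (II, 12171590 to 12171905; 31.3 and 46.2, distance 0.06), R07H5.16 (IV, 11199053 to 11199368; 33.7 and 45.9, distance 0.07) and *sre-23* (I, 8259414 to 8259729; 34.2 and 45.9, distance 0.09). With 2 samples such likeness is a matter of similar height only.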

How the data were processed

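ChIP-seq regions were read from the 8 deposited lists of 2 replicates in 1 group. Per the labels, chromatin was sonicated to 200 to 800 bp. Per the files that describe the lists, the authors aligned reads to ce11 and made the lists from filtered alignments with a control file. The aligner was not given in the sources used here, nor was the peak caller. Signal, as deposited by the authors, is a score per region on an unstated scale. The deposited −log10 of the global IDR is capped at 5. The series lists also hold 16 columns of replicate values that carry no sample name, and these were left out.

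Summits, as the lists give them, were placed on Ensembl release 115 (WBcel235, the same build as ce11). Introns were those of coding transcripts outside every exon of the gene. A replicate's signal for a series region was that of the candidate sharing most bases in its ranked list, with at least 1 bp shared. Percentiles count genes with a lower highest candidate among genes that have any. Windows of 200 bp came from RefSeq's copy of the genome. Of 75 gene symbols given in 7 lists, 74 matched. Named genes were the 5 members, list genes with a conservative region, otherwise the 2 of a list with the highest mean percentile, and the nearest 3 genes by signal. The members and lists were chosen with earlier results of these data known. Window assignment and matching were tested on simulated data. Python 3.11.15 and pandas 2.3.3 were used. Alternatives covered the peak list, replicates, threshold, windows, overlap rule and gene assignment.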

Additional observations from a re-analysis of the deposited data

How the results depend on the processing

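The count of members with a promoter summit, 1 in the conservative list, was 2 in the second series list, which added *pat-10*. It ranged from 0 to 1 over the lists of single replicates: the list of replicate 1 held 0 and that of replicate 2 held *sca-1*. At an IDR of 0.001 it was 0, with no share over all genes taken at that threshold to read it against. An IDR of 0.01, already the threshold of the conservative list, left it at 1. The other windows, overlap in place of summits and the nearest 5′ end each left it at 1 as well. The count with an intronic summit, 1, likewise ranged from 0 to 1 over single replicates, and was 0 for introns outside promoter windows, because the *sca-1* intron lies in one. The 2 further calcium genes with a promoter summit were 1 without replicate 2 and 0 without replicate 1. The *sca-1* signals were the same under both other matching rules. Each region met a single candidate in each replicate, over more than 50% of its bases, so these rules could not change them. Requiring 50% overlap left 12 of 15 recurring candidates in replicate 1 and 11 of 14 in replicate 2. These were 54.5% of the replicate 1 candidates and 40.7% of the replicate 2 ones, against 47.7% and 45.9% over all protein-coding genes. No paired analysis was possible because there is only 1 group. With 2 replicates and unknown depth, a gene without a called region is not shown to lack binding.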

Other observations

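The start of *egl-19* lay in a stretch without any candidate region in replicate 1. The nearest replicate 1 summits lay at -6850 bp and 5960 bp from the gene's 5′ end, while replicate 2 listed 10 within 5000 bp on either side, the nearest 6 bp downstream. The other 4 genes had 8 to 13 candidates in that span in replicate 1 and 9 to 15 in replicate 2, and the medians over all genes were 10 and 11. Of 19973 genes, 265 (1.33%) had 0 in replicate 1, and 44 (0.220%) had 0 there and 10 or more in replicate 2. The opposite pattern was found at 21 genes (0.105%). The span was chosen after these values were seen, and no cause was tested.

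At *sca-1*, a candidate at the 3′ end of the gene had a signal of 44.8 in replicate 1, higher than at any of the called regions of the locus in that replicate, and the nearest replicate 2 candidate had 26.6. No series list called a region there.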
